A study of Danio rerio with 96 samples.

Results

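The comparison described here is that of irradiated larvae (XR) with unirradiated control larvae (Cont) at 84 h post fertilization (hpf), which is 48 h after a dose of 8 Gy given at 36 hpf. Its members are the 12 libraries that the labels and the authors' table of library properties place at 84 hpf in these groups, 6 of XR and 6 of Cont, out of 96 libraries in the series. A library held RNA of 1 zebrafish larva, taken whole. All larvae, controls included, were of an albino line that carries slc45a2 b4/b4 and lacks melanin. Cont larvae received neither X-rays nor folic acid (FA), and XR larvae received X-rays without FA. For comparison, values are given from FA larvae (200 μM FA, no X-rays) and FA + XR larvae (200 μM FA begun before the 8 Gy) of the same age, 6 libraries each, and from XR and Cont larvae of 60 hpf, 24 h after irradiation, again 6 libraries each. Each group was kept in a well of its own, so an effect of the well and an effect of the treatment cannot be told apart, and n counts larvae. The question of the comparison is which tissues had lost or gained expression 2 days after irradiation of an embryo whose organs were still forming.

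Between 60 and 84 hpf a zebrafish hatches into a larva that begins to see and is close to its first feeding. In this interval the photoreceptors of the retina switch on the opsins and the rest of the light-sensing cascade, the acinar cells of the pancreas begin to make digestive enzymes, and synapses form in the brain. The damage that X-rays do to DNA is read in the cell by the transcription factor p53, whose target genes stop the cell cycle, repair DNA or start cell death, and dividing progenitor cells are the most sensitive to it. RNA of a whole larva mixes all tissues. For every result below, fewer cells of a type and less RNA per cell cannot be told apart.

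Total counts were 3672662 to 6021541 in Cont (median 4302473) and 700645 to 5428850 in XR (median 3168916). The XR library of 700645 counts stood apart from the rest. Its mean correlation with the other XR libraries was 0.843, against 0.905 to 0.927 for the others, and results that rest on it are given with and without it. Markers that define the main organs, save SLC45A2 of pigment cells (11 of 12 libraries), had counts in all 12 libraries. Examples were prss1 of the exocrine pancreas, ins of the endocrine pancreas, krt4 of the skin, fabp10a of the liver and ELAVL3 of neurons. The markers planned for fast muscle and macrophages, mylpfa and mpeg1.1, have no value here. Levels are given as CPM (counts scaled to a common library size), as the lowest, median and highest of the 6 larvae, and they are compared between larvae and not between genes. Log2 fold changes are XR minus Cont with their standard error (SE), and adjusted p values are those of edgeR over all genes tested.

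More genes were lower than higher in XR. Of 16127 genes tested, 273 (1.69%) were called at an adjusted p below 10%, of which 88 (0.546% of those tested) were higher and 185 (1.15%) were lower in XR. For 218 genes (1.35%) the 6 XR larvae and the 6 Cont larvae did not overlap, with 61 higher (0.378%) and 157 lower (0.974%). Without the XR library of 5428850 counts, 176 genes were called, 58 higher and 118 lower, and without the XR library of 2050987 counts, 123 lower genes were called. Without the XR library of 700645 counts, 117 higher and 174 lower genes were called. The genes were sorted by 47 lists of marker genes, 37 for tissues and 10 for cell states. The lists were chosen with earlier results of these data known, so their order describes these data and is not a test. The called genes were unevenly spread over these lists. Photoreceptors held the most lower genes, followed by the liver, the exocrine pancreas, the inner retina and neurons, and p53 targets and fast skeletal muscle held the most higher genes.

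**Figure D1:**
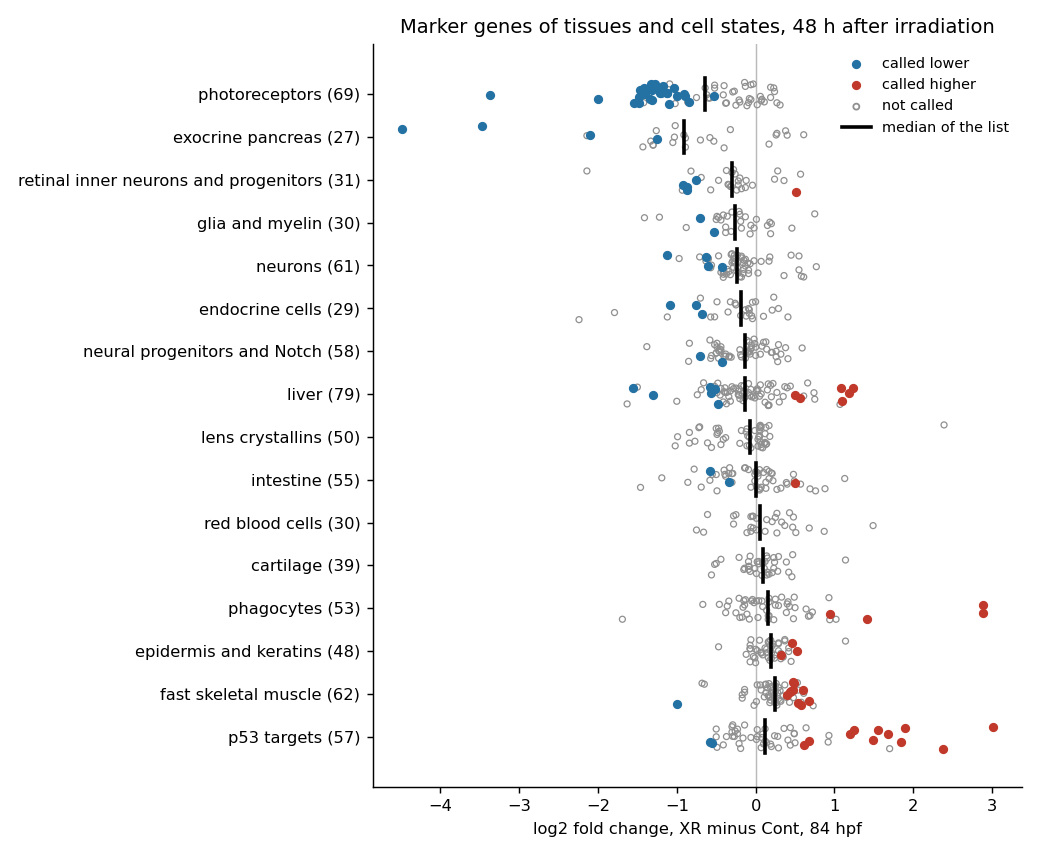
Log2 fold change of XR minus Cont at 84 hpf (x axis) for each tested gene of 16 marker lists (rows, number of tested genes in parentheses), with 6 larvae per group. Filled points are called genes, blue for lower and red for higher, open points are genes not called, and black bars are list medians, which run from -0.91 for the exocrine pancreas and -0.64 for photoreceptors to 0.25 for fast skeletal muscle.

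Photoreceptor genes were lower in XR than in Cont more widely than those of any other of the 47 lists, by the number of called genes. Of 69 tested genes of the list, 26 were lower and 0 were higher in XR, against 1.15% lower among all genes. The median over the 69 genes was -0.64, with 58 below 0, where the median over all genes tested was 0.00, with 8114 above and 8013 below 0. For 17 of the 69, each among the 26, the larvae of the groups did not overlap, against 0.974% in that direction among all genes. The summed level of the list was 4773, 6682 and 8193 CPM in Cont (lowest, median and highest) and 2418, 2958 and 4205 CPM in XR. Every irradiated larva lay below every control larva, and the ratio of the medians was 0.443. With 1 library left out, 23 to 27 genes of the list were called lower.

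Opsins are the light-absorbing proteins of photoreceptors, and each cone type of the zebrafish uses its own. OPN1SW, a short-wavelength cone opsin (ENSDARG00000045677), had 663, 1280 and 1537 CPM in Cont and 229, 398 and 632 CPM in XR. The groups did not overlap, and the log2 fold change was -1.49 (SE 0.23, adjusted p 4.78e-05, exact permutation p 0.00216, the smallest that 6 against 6 larvae can give). The blue cone opsin opn1sw2 had 256, 413 and 537 CPM in Cont and 86.2, 144 and 212 CPM in XR, again without overlap (-1.48, SE 0.22, adjusted p 3.32e-05). The green cone opsin opn1mw1 had 314, 520 and 631 CPM in Cont and 108, 150 and 298 CPM in XR, also without overlap (-1.42, SE 0.24, adjusted p 0.000322). The red cone opsin opn1lw2 had 511, 725 and 948 CPM in Cont and 220, 274 and 457 CPM in XR, and these too were separate (-1.20, SE 0.16, adjusted p 5.65e-06). Opsins of both short and long wavelengths were thus lower. Green and red cone opsins of zebrafish lie in arrays of similar copies, and how reads were divided among copies is not stated, so single copies are uncertain.

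The cascade behind the opsins was lower as well. Light-activated opsin acts on the G protein transducin, which activates a phosphodiesterase that lowers cGMP. The cone transducin gamma subunit GNGT2 (ENSDARG00000103543) had 970, 1429 and 1836 CPM in Cont and 264, 419 and 793 CPM in XR (-1.54, SE 0.23, adjusted p 3.86e-05). For gnb3b, the cone beta subunit, the values were 215, 249 and 315 CPM in Cont and 65.4, 89.7 and 152 CPM in XR (-1.33, SE 0.19, adjusted p 1.06e-05). Neither gene overlapped between the groups. The alpha subunits GNAT2 of cones (-1.32, SE 0.24, adjusted p 0.000649) and GNAT1 of rods (-1.12, SE 0.22, adjusted p 0.00266) were lower too, each with overlap. The cone phosphodiesterase PDE6C was lower by a smaller step (-0.84, SE 0.19, adjusted p 0.0101), and its inhibitory subunit pde6ha had 176, 320 and 457 CPM in Cont and 80.7, 141 and 200 CPM in XR (-1.28, SE 0.26, adjusted p 0.00295). A gene for a protein that ends the response moved with those that start it. Cone arrestin ARR3 (ENSDARG00000098475), which binds spent opsin, had 71.1, 89.9 and 114 CPM in Cont and 25.3, 38.1 and 58.4 CPM in XR (-1.21, SE 0.20, adjusted p 0.000135). The calcium sensor recoverin RCVRN (ENSDARG00000019902), which is not on the list, had 150, 170 and 186 CPM in Cont and 43.8, 72.4 and 96.3 CPM in XR without overlap, and it had the smallest p of the lower genes (-1.24, SE 0.16, adjusted p 1.08e-06). The values of opn1mw1, GNAT2, GNAT1, PDE6C, pde6ha and ARR3 are shown by a choice made after they were seen, to complete the cascade.

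Genes for the structure and upkeep of photoreceptors followed the same direction. PRPH2 (ENSDARG00000038018), the peripherin that shapes the rims of outer segment discs, had 28.8, 41.1 and 54.8 CPM in Cont and 11.4, 13.6 and 22.5 CPM in XR (-1.47, SE 0.21, adjusted p 1.57e-05). Retinoschisin rs1a, which photoreceptors secrete to hold retinal layers together, had 81.9, 122 and 157 CPM in Cont and 28.7, 46.4 and 65.03 CPM in XR (-1.34, SE 0.18, adjusted p 4.93e-06). The retinoid carrier rbp3, which moves chromophore between photoreceptors and pigment epithelium, had 44.7, 118 and 185 CPM in Cont and 20.8, 28.6 and 41.8 CPM in XR (-1.98, SE 0.26, adjusted p 3.61e-06). None of the 3 overlapped. The cone-rod homeobox factors that drive photoreceptor genes were not among the called genes, with -0.41 (SE 0.24, adjusted p 0.67) for crx and -0.37 (SE 0.26, adjusted p 0.778) for CRX. Both values lay below 0, and these genes were named outside the rule for naming genes. On simulated counts 22.7% of 1.5-fold changes were recovered, so the lack of a call does not show that they were unchanged.

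Photoreceptor genes were also lower in irradiated larvae that had FA, and were not called 24 h earlier. Of the 26 genes, 25 had the same direction in FA + XR vs. FA, where 21 were called (0.546% of all genes were called lower there). The list held 22 genes called lower with FA, and also 22 without the libraries of low totals, which in FA are those of 423265 and 680281 counts. The list summed to 4623, 5165 and 7405 CPM in FA and to 2042, 3158 and 3977 CPM in FA + XR, without overlap and with a ratio of medians of 0.612. OPN1SW had a median of 849 CPM in FA and 418 CPM in FA + XR (-1.20, adjusted p 0.00247). At 60 hpf the sums were 515 to 1168 CPM in Cont and 660 to 1194 CPM in XR, and 0 of the 25 genes with a value were called (0.404% of 16319 genes were called at 60 hpf in either direction). Most of these genes are switched on between the time points. In FA larvae, which are in neither group of the comparison and in which 20% of all genes changed from 60 to 84 hpf (8.91% rose and 11% fell), 36 of 67 photoreceptor genes rose from 60 to 84 hpf, and 23 of these 36 were called lower in XR, with a median of -1.11. Of the 31 that did not pass the test for a rise, 3 were called lower, with a median of -0.27. The change in effect from 60 to 84 hpf was itself called for 3 of 16314 genes (0.0184%, with 0.0123% higher and 0.00613% lower), of which 1 is on the list, PRPH2 (ENSDARG00000038018), whose XR minus Cont was 1.43 at 60 hpf without a call and which differed between the times by -3.28 (SE 0.69, adjusted p 0.0647). For the others the difference between the times was not called.

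**Figure D2:**
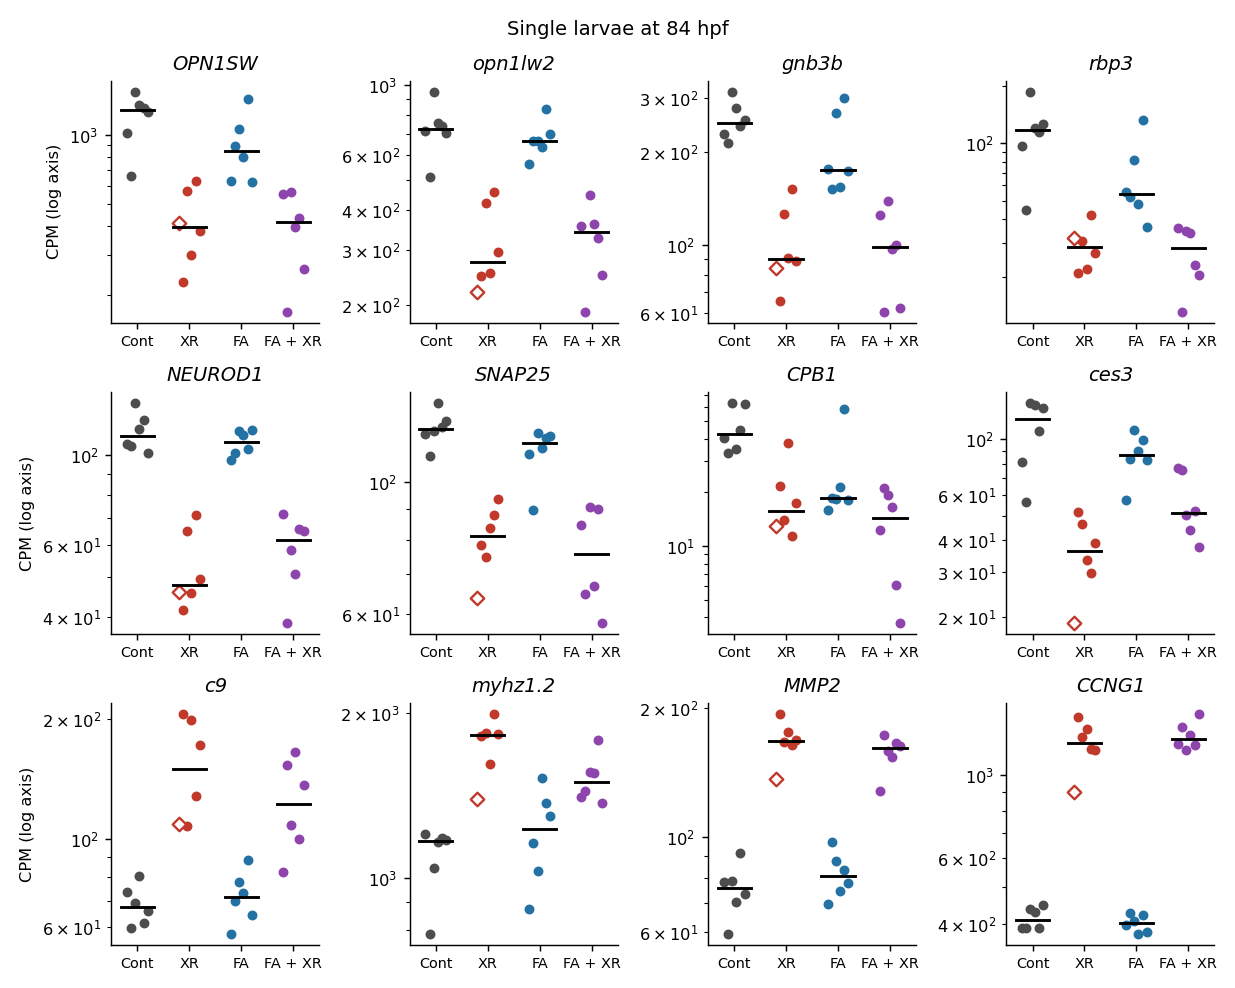
Levels of 12 genes in single larvae at 84 hpf, in CPM on a log axis, with 6 larvae per group (Cont, XR, FA and FA + XR). Points are larvae, bars are medians, and the open diamond is the XR library of 700645 counts. OPN1SW, opn1lw2, gnb3b, rbp3, NEUROD1, SNAP25 and ces3 lie lower and c9, myhz1.2, MMP2 and CCNG1 lie higher in all 6 XR larvae than in all 6 Cont larvae, whereas CPB1 overlaps.

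Genes of inner retinal neurons and of neurons elsewhere were lower by smaller steps. Of 31 genes of inner retinal neurons and retinal progenitors, 4 were lower and 1 was higher. Among all genes 1.15% were lower and 0.546% higher. The median over the 31 genes was -0.30, with 26 below 0. The list of inner retinal genes summed to 538, 546 and 555 CPM in Cont and to 383, 426 and 485 CPM in XR, without overlap. VSX1, a transcription factor of bipolar cells, had 41.2, 50.3 and 65.3 CPM in Cont and 21.3, 24.4 and 37.4 CPM in XR (-0.87, SE 0.19, adjusted p 0.00711). POU4F2, a factor of retinal ganglion cells, had 19.4, 20.6 and 23.6 CPM in Cont and 6.93, 9.79 and 16.8 CPM in XR (-0.87, SE 0.21, adjusted p 0.023). Both were separate between the groups. NEUROD1, a factor of differentiating neurons that also acts in photoreceptors and endocrine cells, had 101, 111 and 134 CPM in Cont and 41.6, 47.9 and 71.1 CPM in XR (-1.09, SE 0.14, adjusted p 1.37e-06). Its list, that of endocrine cells, had 3 lower genes of 29, and the others were ISL1 (-0.75, SE 0.19, adjusted p 0.0338) and SCG3 (-0.68, SE 0.16, adjusted p 0.0198). ISL1 was no longer called without the XR library of 2050987 counts (adjusted p 0.127) or that of 3425200 counts (adjusted p 0.105). Hormone genes of the list were not among them. The sums of the endocrine list, NEUROD1 included, did not overlap between Cont and XR (ratio of medians 0.766), and 24 of the 29 genes lay below 0, with a median of -0.19. In larvae with FA the sums of this list overlapped, with a ratio of 0.818.

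Of 61 neuron genes, 4 were lower and 0 higher, against 1.15% lower among all genes. The median over the list was -0.24, with 50 below 0. The neuron list summed to 3080, 3252 and 3440 CPM in Cont and to 2586, 2686 and 2833 CPM in XR, and the groups were separate. Among the 4 were SNAP25, which drives the fusion of synaptic vesicles, atp1a3a, a neuronal sodium pump, and SLC32A1, which loads GABA into vesicles. SNAP25 (ENSDARG00000058117) had 111, 123 and 136 CPM in Cont and 63.9, 80.97 and 93.7 CPM in XR (-0.60, SE 0.12, adjusted p 0.00319). Its groups were separate. The calls of atp1a3a (-0.43, SE 0.12, adjusted p 0.0551) and SLC32A1 (-0.63, SE 0.18, adjusted p 0.0822) held in 7 and 4 of 12 fits with 1 library left out, and the number of neuron genes called lower was 2 without the XR library of 2050987 or that of 5428850 counts and 7 without the Cont library of 3762373 counts. In the larvae with FA the neuron list was separate too, at 2772 to 3266 CPM in FA and 2341 to 2702 CPM in FA + XR. There 6 genes of the list were lower, against 0.546% of all genes. Photoreceptors also release transmitter through SNAP25, and the part of the eye in its fall was not tested. Of 30 glia and myelin genes 2 were lower (GLUL, -0.53, and pou3f1, -0.71). Among 58 genes of neural progenitors 2 were lower (tubb5, -0.43, and pou3f1 again). Each of these genes had an adjusted p between 0.0447 and 0.0874, and their calls were lost in some fits with 1 library left out. Most lists of these sizes would hold 1 call or none at the all-gene share of 1.15%, so these counts alone set neither tissue apart. The sums of neural progenitor genes overlapped between the groups, with a ratio of medians of 0.940. Those of glia and myelin genes did not overlap (ratio of medians 0.872), and the median over that list was -0.26, with 23 of 30 genes below 0. In larvae with FA the glia sums overlapped, with a ratio of 0.944. The pituitary and hypothalamus list had 1 lower gene of 25, and its sums did not overlap (ratio of medians 0.810). With FA its sums overlapped, with a ratio of 0.892. Interferon response sums were higher in XR without overlap, with ratios of 1.211 and, with FA, 1.286. The median over that list was -0.02, and its 1 called gene, isg20, is given below among p53 targets.

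Genes of the exocrine pancreas had lower values in XR, but the larvae of each group varied widely. Acinar cells make the digestive enzymes that are released into the gut. Of 27 tested genes 4 were lower and 0 higher, against 1.15% lower among all genes. The median of -0.91 was the lowest of the 47 lists. CPB1, carboxypeptidase B, had 33.1, 42.4 and 63.1 CPM in Cont and 11.4, 15.7 and 37.5 CPM in XR, with overlap (-1.25, SE 0.30, adjusted p 0.0218, called whichever of the 12 libraries was omitted). The elastase ela3l had 6.55, 32.01 and 96.2 CPM in Cont and 5.68, 6.52 and 13.6 CPM in XR (-2.10, SE 0.57, adjusted p 0.0561), and without the Cont library of 6021541 counts it was not called (-1.53, adjusted p 0.321). The chymotrypsinogen ctrb.2 and the elastase cela1.2 rested on few reads, 87 in the 6 Cont larvae against 2 in the 6 XR larvae and 59 against 3. The list summed to 745, 1758 and 2648 CPM in Cont and to 441, 722 and 2091 CPM in XR, so the groups overlapped, and the highest XR value was that of the library of 3425200 counts. Without that library 11 genes of the list were called lower, and without the XR library of 5428850 counts 1 was. In larvae with FA the median over the list was -0.89 with 0 genes called, and the summed level did not follow that median. The sums were 461, 815 and 3390 CPM in FA and 232, 907 and 987 CPM in FA + XR, so the ratio of medians was 1.114 with FA against 0.410 without it, and both pairs overlapped. Acinar genes rise steeply at this age. The sums at 60 hpf were 48.3 to 68.5 CPM in Cont and 55.1 to 90.3 CPM in XR, and 19 of 25 genes rose from 60 to 84 hpf in FA larvae.

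Genes of the liver moved in both directions. Of 79 tested genes 6 were higher and 6 were lower, against 0.546% higher and 1.15% lower among all genes. The median over the list was -0.14, and the summed level overlapped between the groups (8404 to 9732 CPM in Cont, 7183 to 9501 CPM in XR). Complement and clotting proteins that the liver secretes into blood were among the higher genes. The terminal complement component c9 had 59.8, 67.3 and 80.6 CPM in Cont and 108, 150 and 206 CPM in XR (1.18, SE 0.16, adjusted p 4.40e-06). The central component c3a.1 had 59.4, 74.3 and 79.02 CPM in Cont and 102, 142 and 217 CPM in XR (1.1, SE 0.19, adjusted p 0.00025), and complement factor B, cfb, had 25.4, 29.6 and 34.7 CPM in Cont and 40.4, 62.2 and 120 CPM in XR (1.23, SE 0.24, adjusted p 0.00154). The 3 genes were separate between the groups. The c3a genes are near copies, so the share of c3a.1 is uncertain. Fibrinogen alpha, fga, was higher by less (0.56, SE 0.14, adjusted p 0.0243). Complement was not called at 60 hpf, where c9, c3a.1 and cfb differed by 0.25, -0.04 and -0.03. Under FA only c9 (0.77, adjusted p 0.00775) and cfb (1.18, adjusted p 0.00786) of the 6 were called, and whether the effect differs with FA is tested below.

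Metabolic enzymes and other secreted proteins of the liver were among the lower genes. The carboxylesterase ces3 had 56.4, 120 and 139 CPM in Cont and 18.9, 36.3 and 51.5 CPM in XR, without overlap (-1.55, SE 0.20, adjusted p 1.67e-06). MAT1A, which makes S-adenosylmethionine, the methyl donor of the cell, had 71.5, 79.1 and 93.7 CPM in Cont and 44.9, 61.5 and 69.7 CPM in XR (-0.48, SE 0.13, adjusted p 0.0418), and its call was lost without the Cont library of 4286073 or 6021541 counts or the XR library of 2050987 counts. The protease inhibitor serpina1 had 261, 308 and 336 CPM in Cont and 186, 213 and 237 CPM in XR (-0.52, SE 0.11, adjusted p 0.00694), and fetub, a fetuin, was lower by a like amount (-0.57, SE 0.14, adjusted p 0.0251). Under FA none of the lower liver genes was called, and fetub and MAT1A had differences of 0.40 (adjusted p 0.269) and 0.10 (adjusted p 0.884). The genes fga and fetub were chosen after their values were seen.

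Apolipoproteins carry lipids in blood and, in the larva, from yolk and liver. Of 27 tested genes 3 were higher and 1 was lower, against 0.546% higher and 1.15% lower among all genes. The apolipoprotein E copy apoeb, also a marker of microglia in zebrafish, had 342, 403 and 552 CPM in Cont and 441, 867 and 1008 CPM in XR, with overlap (0.94, SE 0.15, adjusted p 0.000116). The other copy, apoea, had 476, 633 and 686 CPM in Cont and 594, 884 and 1064 CPM in XR (0.52, SE 0.11, adjusted p 0.00626), and apobb.1, the scaffold of lipoprotein particles, was also higher (0.50, SE 0.11, adjusted p 0.00694). The lower gene was apoc2, the cofactor of lipoprotein lipase (-0.34, SE 0.10, adjusted p 0.0794), whose call held in 4 of 12 fits with 1 library left out. Of 53 phagocyte genes 4 were higher and 0 lower, against 0.546% higher among all genes, and the median was 0.16. The chemokine cxcl18b had 0, 2.02 and 2.77 CPM in Cont and 9.68, 12.6 and 19.7 CPM in XR, without overlap (2.88, SE 0.44, adjusted p 3.89e-05), and the galectin lgals9l1 had 1.69, 2.44 and 5.22 CPM in Cont and 7.39, 8.01 and 9.41 CPM in XR, also separate (1.41, SE 0.34, adjusted p 0.021). The other 2 were apoeb and the low chemokine gene ccl34a.4, and the neutrophil genes npsn (-0.67, SE 0.23, adjusted p 0.188) and lyz (-0.46, SE 0.21, adjusted p 0.461), chosen after their values were seen, had differences below 0 without a call. The summed level of the list overlapped (3381 to 4795 CPM in Cont, 3084 to 5023 CPM in XR).

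Genes of fast skeletal muscle and skin were among those that rose in irradiated larvae. Of 62 fast muscle genes 10 were higher and 1 was lower, against 0.546% higher and 1.15% lower among all genes. The median over the 62 genes was 0.25, with 54 above 0. The fast myosin heavy chain gene myhz1.2 had 788, 1166 and 1201 CPM in Cont and 1394, 1822 and 1992 CPM in XR, without overlap (0.68, SE 0.11, adjusted p 0.000246). Its neighbour myhz1.1 had 2344, 3069 and 3940 CPM in Cont and 4060, 4452 and 4950 CPM in XR (0.49, SE 0.11, adjusted p 0.00555). These myosin genes are near-identical copies, so the division of reads between them is uncertain. Muscle creatine kinase, ckma (0.40, SE 0.09, adjusted p 0.0162), and the calcium pump of the sarcoplasmic reticulum, atp2a1 (0.47, SE 0.10, adjusted p 0.00989), were higher with overlap. The 1 lower gene, CKMT2 (ENSDARG00000069615, -1.0), a mitochondrial creatine kinase, is also on the photoreceptor list. The XR library of 700645 counts went against the rest here. The list summed to 91490 to 104800 CPM in Cont and to 88130 to 140100 CPM in XR, and without that library XR ran from 117000 to 140100 CPM, without overlap, and 16 genes were called higher. Without the Cont library of 4286073 counts 5 were, and without the XR library of 5428850 counts 6 were. In larvae with FA 9 were higher and 0 lower (0.49% of all genes were called higher there), and the sums were separate, at 75830 to 101500 CPM in FA and 106200 to 120500 CPM in FA + XR. Of the 10 genes higher without FA, all had the same direction with FA, but only 3 were called there. Without the libraries of low totals 7 genes of the list were higher and 1 was lower with FA. On the heart muscle list 2 of 25 genes were higher and 0 lower, MYH6 (ENSDARG00000079564) and cmya5, both with overlap. Their calls held in 3 and 7 of 12 fits with 1 library left out, and 0 of the 2 had the same direction with FA.

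Of 48 genes of epidermis and keratins 3 were higher and 0 lower, against 0.546% higher among all genes, and the median was 0.19. The keratin krt4 of the outer skin had 5183, 5575 and 5806 CPM in Cont and 5442, 7965 and 8756 CPM in XR (0.46, SE 0.09, adjusted p 0.00339). The others were the keratin cyt1l and the annexin ANXA2, whose calls each held in 2 of 12 such omissions of a library. The list summed to 22000 to 24590 CPM in Cont and to 28840 to 31200 CPM in XR without the library of 700645 counts, which had 21890 CPM, and without that library 5 genes were called. In larvae with FA 6 were higher (0.49% of all genes were called higher there). Muscle and skin lists make up a large part of all counts, and CPM is a share, so a gain of one tissue and a loss of others cannot be told apart from these values alone.

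Targets of p53 were still high 48 h after irradiation. Of 57 tested genes 11 were higher and 2 were lower, against 0.546% higher and 1.15% lower among all genes. For 10 of the 57, each among the 11, the groups did not overlap, against 0.378% in that direction among all genes. The median over the list was 0.12, so most targets on it were not called. The cyclin CCNG1 had 389, 410 and 448 CPM in Cont and 901, 1216 and 1426 CPM in XR (1.55, SE 0.10, adjusted p 4.85e-15). The ribosomal protein-like gene rps27l had 88.9, 108 and 133 CPM in Cont and 300, 409 and 518 CPM in XR (1.90, SE 0.14, adjusted p 2.35e-13). In both of these the lowest irradiated larva had well over the highest control value. The ubiquitin ligase mdm2, which removes p53 protein, had 11.7, 19.3 and 24.6 CPM in Cont and 45.7, 59.6 and 76.3 CPM in XR (1.68, SE 0.17, adjusted p 2.14e-09), and PHLDA3, an inhibitor of Akt, had 8.83, 9.77 and 15.16 CPM in Cont and 25.8, 42.3 and 44.5 CPM in XR (1.85, SE 0.19, adjusted p 7.19e-09). The exonuclease isg20 (1.49, SE 0.14, adjusted p 1.08e-09) and 1 of 2 genes with the symbol GADD45A (ENSDARG00000043581, 1.25, SE 0.29, adjusted p 0.0129) were also higher, as was sesn3, a sestrin (0.68, SE 0.17, adjusted p 0.0266). The cell cycle inhibitor cdkn1a had 7 reads in the 6 Cont larvae and 39 in the 6 XR larvae, and its call (adjusted p 0.0936) held in 3 of 12 fits with 1 library left out. The stress factor ATF3 (1.2, SE 0.36, adjusted p 0.0963) held in 2. The values of sesn3 and ATF3 were picked after they were seen.

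The summed level of p53 targets was higher in XR 24 h and 48 h after irradiation. At 48 h this was mainly through abundant genes, and at 24 h their part was not examined. The list summed to 1699 to 2017 CPM in Cont and 2644 to 3710 CPM in XR at 84 hpf, a ratio of medians of 1.77. Without CCNG1 and rps27l, an alternative added after seeing the data, the sums were 1220, 1350 and 1463 CPM in Cont and 1442, 1614 and 1923 CPM in XR, which overlapped, and 20 of the 57 genes had values below 0. With all genes the list summed to 1540 to 2053 CPM in Cont and 3148 to 3519 CPM in XR at 60 hpf. Of the 11 higher genes 8 were called at 60 hpf, where 0.257% of all genes were called higher. The difference between the times was not called for any gene of the list. With FA the sums were 1604 to 1855 CPM in FA and 3017 to 3577 CPM in FA + XR.

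**Figure D3:**
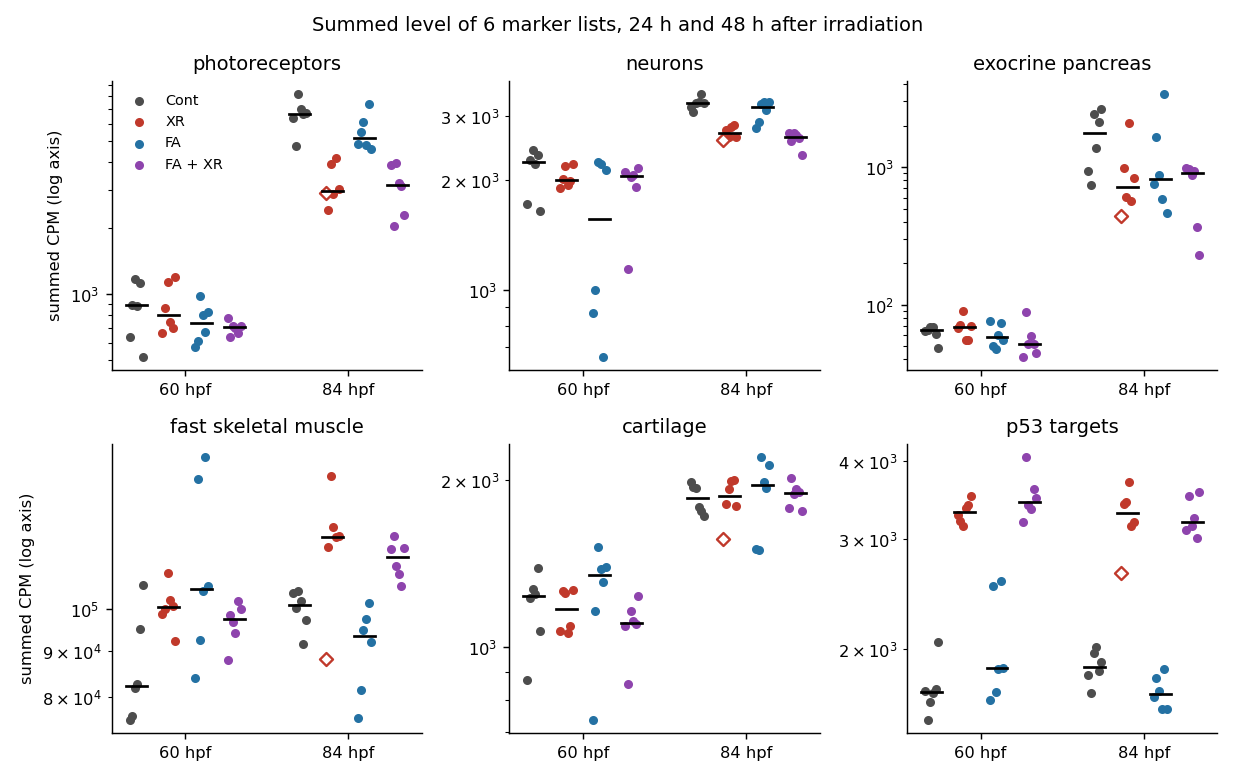
Summed level of 6 marker lists per larva, in CPM on a log axis, at both ages (60 hpf and 84 hpf), with 6 larvae per group at each time. Points are larvae, bars are medians, and the open diamond is the XR library of 700645 counts. The p53 sums of XR (2644 to 3710 CPM at 84 hpf) lie above those of Cont at both times, the photoreceptor sums lie below Cont only at 84 hpf, and the cartilage sums overlap.

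Some of the largest rises fell outside the lists. The uncharacterized genes si:dkey-40h20.1 and si:dkey-85n7.7 had medians of 5.27 and 5.34 CPM in Cont and 44.4 and 42.7 CPM in XR (3.42, SE 0.27, adjusted p 2.57e-12, and 3.15, SE 0.27, adjusted p 4.91e-11), without overlap. The semaphorin SEMA6D, of a family of axon guidance proteins, had 0.652, 1.44 and 3.77 CPM in Cont and 7.09, 15.4 and 18.3 CPM in XR (2.91, SE 0.41, adjusted p 9.47e-06). The genes with the largest fitted folds were near silent in control larvae. The gene cpn1 (ENSDARG00000096720) had 16 reads in Cont and 276 in XR, and jac9, a lectin-type gene, had 4 against 135, and both were chosen after their values were seen. Among connective tissue genes MMP2, a protease that cuts collagen, had 59.3, 75.98 and 91.4 CPM in Cont and 136, 167 and 193 CPM in XR (1.15, SE 0.12, adjusted p 3.18e-09). MMP2 was higher at 60 hpf as well (1.04, adjusted p 0.000264) and with FA (0.94, adjusted p 1.31e-06). It was the only called gene of 36 on the list of fibroblasts and tendon. As 1.69% of all genes were called, that count does not set the list apart.

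Of 24 notochord genes 3 were higher (0.546% among all genes), zgc:113232, cmn and ngs, and their calls rested on 1 larva. In the XR library of 3425200 counts zgc:113232 had 15.7 CPM, cmn 15.7 CPM and ngs 24.3 CPM, whereas the highest Cont values were 0.635, 2.12 and 2.12 CPM. Without that library 0 of the 3 were called, with adjusted p values of 0.281, 0.447 and 0.664. Exact permutation p values were 0.106, 0.221 and 0.0779. In FA larvae cmn had 5.02 to 21.2 CPM, above all Cont larvae, and 0 of the 3 had the same direction in FA + XR vs. FA.

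In 14 lists, with 380 tested genes between them and 10 to 74 each, no gene was called, where 1.69% of all genes were. Most lists of this size would hold 1 call or none at that share, so the count sets none of these tissues apart. The 13 lists of tissues were the lens crystallins (50 tested, median -0.07), cartilage (39, 0.09), bone and teeth (27, 0.02), red blood cells (30, 0.06), endothelium (31, 0.07), the ear and lateral line (43, 0.05), the fin fold (18, 0.13), mucous cells (13, 0.21), muscle stem cells (16, 0.15), lymphocytes and thymus (13, -0.01), the thyroid and steroid glands (10, 0.17), germ cells (11, 0.01) and the hatching gland (14, 0.16). Cartilage forms the jaw of the larva. The cartilage matrix gene MATN1 had 364, 421 and 429 CPM in Cont and 298, 370 and 446 CPM in XR (-0.15, SE 0.13, adjusted p 0.843), and cnmd, chondromodulin, differed by 0.01 (SE 0.12, adjusted p 0.987). The cartilage list summed to 1722 to 1987 CPM in Cont and 1567 to 2000 CPM in XR, and 14 of its 39 genes rose from 60 to 84 hpf in FA larvae. The cartilage gene snorc, chosen after its values were seen, lay just past the threshold (-0.56, SE 0.17, adjusted p 0.101), and without the XR library of 700645 counts it was called lower (-0.59, adjusted p 0.0881), the only gene of these lists that was. MATN3 (ENSDARG00000069245), likewise chosen after its values were seen, also lay near the threshold, in the other direction (1.14, SE 0.34, adjusted p 0.105). Of the 39 cartilage genes 25 lay above 0 and 14 below. In the lens, the gamma crystallin crygm2d10 had 1256 to 1821 CPM in Cont and 1233 to 1982 CPM in XR (0.07, SE 0.11, adjusted p 0.941). Beta crystallins had lower medians in XR but varied widely within both groups and were not called, and these were chosen after their values were seen. CRYBB1 had 133, 638 and 1232 CPM in Cont and 46.1, 135 and 1131 CPM in XR (-0.99, SE 0.59, adjusted p 0.681), crybb1l1 had medians of 461 and 97.97 CPM (-1.02, SE 0.58, adjusted p 0.657), and cryba1b had medians of 534 and 229.9 CPM (-0.71, SE 0.38, adjusted p 0.606). With this spread and depth, losses in these tissues may not have been detectable.

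Calls among genes of dividing cells and of ribosomes were near the share of all genes (1.15% lower, 0.546% higher). Of 78 mitosis genes 1 was lower, STMN1 (ENSDARG00000033655), which is also a neuronal microtubule regulator (-0.54, SE 0.10, adjusted p 0.000669), and the median was 0.09. Of 74 DNA replication genes 0 were called, with a median of 0.16. Of 80 genes of cytosolic ribosomal proteins 1 was lower, RPL22L1, a paralog of RPL22 (-0.45, SE 0.10, adjusted p 0.00977). The median of that list was -0.12 with 78 genes below 0, and with FA it was 0.07 with 76 above 0.

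A larger share of the genes lower in XR rose with age than of all genes tested. In FA larvae 92 of 184 lower genes with a value rose from 60 to 84 hpf and 17 (9.24%) fell, where 9.08% and 11.2% of all genes did. Of the 88 higher genes 7 (7.96%) rose and 29 (32.95%) fell. In 3 FA libraries of 60 hpf the top 50 genes took more of the counts, 36.5% to 40.9% against 32.2% to 33.6% in the others. Without these 3, 71 of the lower genes rose and 25 fell, 3 of the higher genes rose and 16 fell, and 3.82% and 4.96% of all genes did. With all FA libraries kept, 1453 of all genes tested rose, and 92 of these were called lower in XR. The lists are given with the same libraries. The neuron, intestine and cartilage lists had 34, 19 and 14 genes that rose from 60 to 84 hpf, of which 4, 0 and 0 were called lower in XR, beside the 23 of 36 in photoreceptors and 3 of 19 in the exocrine pancreas. Next to 92 of 1453, the counts outside photoreceptors are too small to set those lists apart. Of the genes that did not rise, 0 of 27 in neurons, 2 of 35 in intestine, 0 of 25 in cartilage, 3 of 31 in photoreceptors and 0 of 6 in the exocrine pancreas were called lower. The part of age in the falls was not tested.

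**Figure D4:**
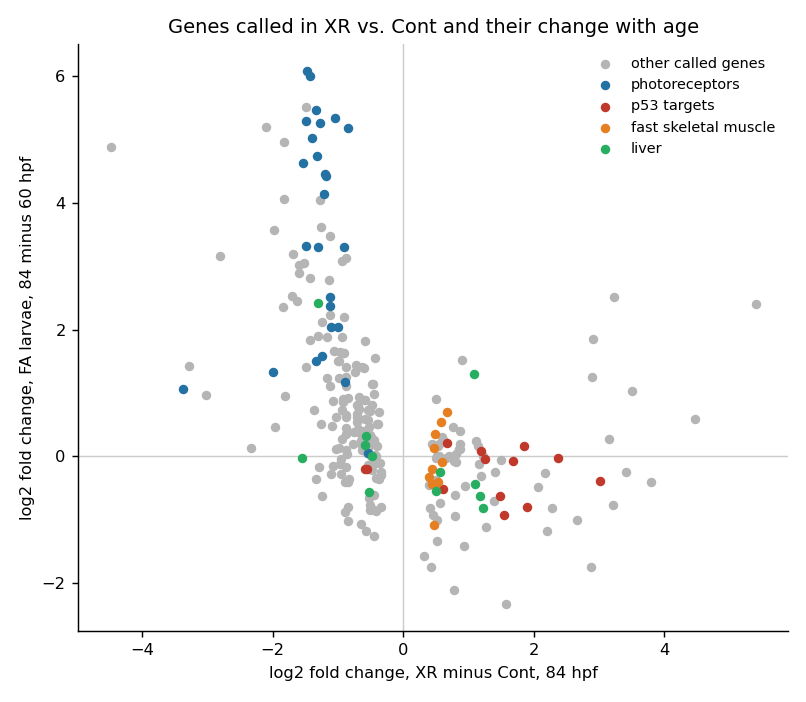
Each called gene of XR vs. Cont at 84 hpf by its log2 fold change (x axis, XR minus Cont) and its log2 change from 60 to 84 hpf in FA larvae (y axis), with 6 larvae per group. Photoreceptor genes (blue) lie at the upper left, with falls in XR and rises with age up to 6.09, and called fast muscle, liver and p53 genes (orange, green, red) lie on both sides of 0 on the y axis, for example CCNG1 at -0.93.

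Most genes called in XR vs. Cont had the same direction under FA. The FA libraries of 423265 and 680281 counts lay far from the others on the first 2 principal components, and the FA + XR vs. FA values rest partly on them. Of the 185 lower genes 174 had the same sign in FA + XR vs. FA and 64 were called in both, which is 34.6% of the 185 and 72.7% of the 88 genes called lower with FA. Of the 88 higher genes 83 had the same sign and 40 were called in both, 45.5% of the 88 and 50.6% of the 79 called higher with FA. At 60 hpf 20 of the higher genes were called in the same direction (22.7% of the 88, 47.6% of the 42 called higher then) and 2 of the lower (1.08% of the 185, 8.33% of the 24). At 37 hpf, 1 h after irradiation, 7 of the higher genes were called (0.0556% of all genes were) and 0 of the lower (0.0487% were). Without the libraries of low totals, 177 of the 185 lower and 81 of the 88 higher genes had the same sign with FA, and 80 and 39 were called in both. In all, 167 genes (1.04%) were called in FA + XR vs. FA. The 2 comparisons share no library. A difference in effect with and without FA was called for 0 of 16127 genes by edgeR, where 640 had an unadjusted p below 0.05 and the smallest adjusted p was 0.164, and for 3 genes by DESeq2. The growth factor carrier fgfbp3 had 47.9, 50.6 and 54.8 CPM in Cont and 13.01, 25.5 and 28.3 CPM in XR (-1.08, SE 0.15, adjusted p 9.47e-06), and -0.05 (adjusted p 0.957) with FA. FKBP5, a co-chaperone of steroid receptors that glucocorticoids induce, had 4.44, 11.8 and 25.95 CPM in Cont and 0.99, 3.24 and 8.28 CPM in XR (-1.96, SE 0.45, adjusted p 0.0129), and -0.02 (adjusted p 0.996) with FA. FKBP5 was the only called gene of 37 on the glucocorticoid list, a count that does not set the list apart, as 1.69% of all genes were called.

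**Figure D5:**
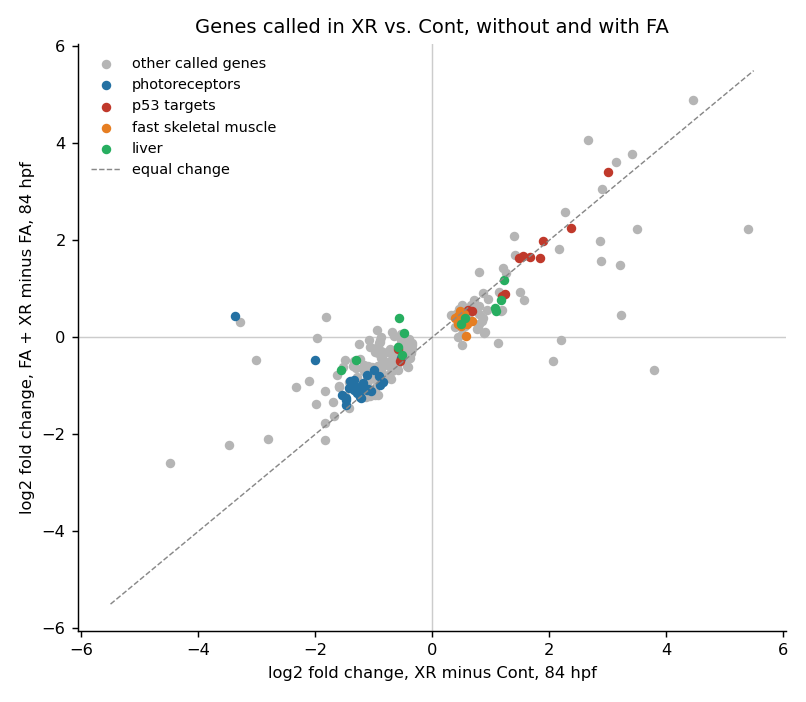
Each called gene of XR vs. Cont at 84 hpf by its log2 fold change without FA (x axis, XR minus Cont) and with FA (y axis, FA + XR minus FA), with 6 larvae per group. The dashed line marks equal change. Photoreceptor genes (blue) and p53 targets (red) lie in the same quadrant in both, except 1 photoreceptor gene with a value of 0.44 with FA.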

How the data were processed

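Whole-body RNA of single larvae was sequenced as 150-bp paired-end reads, which the authors quantified against Ensembl cDNA sequences (GRCz11). The tool, the use of strand and the division of reads among copies are not given in the sources used here. The authors deposited estimated counts (expected counts) for 25907 genes in 96 libraries, not normalized and whole but for 3 values, and these were rounded. Columns were assigned through the deposited table of library properties, and 0 columns were left unmatched.

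At 84 hpf the 24 libraries of the 4 groups were fitted together with edgeR 4.0.16 (R 4.3.3; TMM factors, quasi-likelihood F test) after genes averaging under 2.5 counts were dropped. P values were adjusted by Benjamini-Hochberg over all genes tested, and genes were called below 10%. They cover the spread between larvae. Effects at 60 hpf and of age came from fits of 24 and 48 libraries of the same design. Fold changes are those of the edgeR fit. Log2 CPM values, used in the permutation test and in the screen for far larvae, had a prior count of 2. Single genes were also compared by an exact two-sided permutation test. On simulated counts of this comparison with 16127 genes, 22.7%, 46.3% and 77.6% of changes of 1.5-, 2- and 4-fold were recovered and 9.26% of calls were false.

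Symbols of 23608 genes came from a reference table, which matched 1858 of 2067 list symbols. Of these, 372 matched only after a final copy letter (a or b) was dropped, 24 in the photoreceptor list and 33 in the neuron list. All genes with the shortened symbol then entered the list, so it may hold copies that were not meant. Some of the genes counted in the lists are not reported here by name. No sequences were used, and promoter motifs were not examined. The 47 lists were chosen with earlier results of these data known. Genes named are those the study names, the 15 largest rises and falls without overlap between groups, the 10 smallest p values in each direction, up to 6 called genes by p in each list and, in lists with none, up to 2 of the highest level. Alternatives were DESeq2 1.42.0, RLE factors, DEGES with an exact test, other filters, a prior count of 0.5, a 5% threshold, the 12 libraries alone, omission of libraries under 50% of the median total, and omission of each library.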

Additional observations from a re-analysis of the deposited data

Results flagged for a closer look

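Among 67 genes in both groups, 134 sets of 6 larvae were screened for a larva far from the rest, and 11 were found where 6.7 would be expected at 1 in 20. Values here are log2 CPM. Of the 11, 3 were in the XR library of 700645 counts, which was lowest for ckma (11.76, the others 12.16 to 12.3), atp2a1 (11.11, the others 11.55 to 11.63) and cpn1 (0.82, the others 3.70 to 4.55). The Cont library of 3762373 counts was lowest for PDE6C (4.53, the others 5.28 to 5.39), myhz1.2 (9.62, the others 10.02 to 10.23) and ngs (-0.21, the others 1.01 to 1.43). In XR, the library of 4238657 counts was highest for PDE6C (4.86, the others 4.15 to 4.38) and that of 3425200 counts for si:dkey-40h20.1 (6.28, the others 5.28 to 5.63). In Cont, POU4F2 was highest in the library of 6021541 counts (4.60, the others 4.32 to 4.42), cxcl18b was lowest in that of 4286073 counts (-0.79, the others 0.88 to 1.74), and cmn was lowest in that of 3672662 counts (-0.79, the others 0.78 to 1.43).

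The effect of irradiation at 84 hpf differed from that at 60 hpf for 3 of 16314 genes (0.0184%) by edgeR, each with an adjusted p of 0.0647. PRPH2 (ENSDARG00000038018) differed by -3.28 (SE 0.69), scpp5, a gene of secretory calcium-binding phosphoproteins (ENSDARG00000078622), by 3.04 (SE 0.64) and apoa4a, an apolipoprotein (ENSDARG00000101160), by 1.92 (SE 0.38), all on the log2 scale as the effect at 84 hpf minus that at 60 hpf.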

How the results depend on the processing

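All 273 called genes of XR vs. Cont kept their direction under every setting that gave them a value. Their number was 424 with DEGES and an exact test, 418 without low libraries, 181 at an adjusted p below 5% and 176 to 291 with 1 library left out. Higher genes numbered 148 with DESeq2, 167 without low libraries and 58 to 117 with 1 library left out, and lower genes 306 with DEGES, 122 at 5% and 118 to 174 with 1 left out. Of the 273, 267 were also called by DESeq2 and 174 without the XR library of 5428850 counts. The FA + XR vs. FA count of 167 became 356 with DESeq2. The 66 genes of 60 hpf became 131 with DESeq2 and 148 with only 12 libraries. The 3 genes whose effect differed between times became 13 with DESeq2, 12 with no filter, 14 without low libraries and 0 at 5%. The 0 genes whose effect differed with FA became 3 with DESeq2, 8 with no filter and 2 without low libraries. The 3256 genes that changed with age became 1411 without 3 FA libraries of 60 hpf, an alternative chosen after seeing the data. The cause of these shifts was not tested. Of 109 named genes that were called, 74 were called in every fit with 1 library left out and 101 in every other setting. No paired analysis was possible because count columns bear no replicate numbers.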

Other observations

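Some called genes that belong to none of the 47 lists are given here, chosen after their values were seen. The nucleosome-binding genes hmgn3 (-0.45), hmgn6 (-0.51) and hmgn7 (-0.41), the high-mobility group genes HMGB3 (-0.44) and hmga1b (-0.69), and the prothymosins ptmaa (-0.50) and ptmab (-0.45) were each lower in XR at an adjusted p below 10% by edgeR with 6 larvae per group. For CKB, the brain creatine kinase, the difference was -0.59. No list held these genes and they were not tested as a set.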
